A study of Mus musculus with 10 samples.

Results

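A family of 10 mouse genes of vascular endothelial growth factor (VEGF) signalling were followed in cultured MC38 and MC38.T4 tumour cells: the ligand genes Vegfa, Vegfb, Vegfc, Vegfd and Pgf, the receptor genes Flt1 and Kdr, the neuropilin genes Nrp1 and Nrp2, and Angptl4, an angiopoietin-like gene. They were chosen by symbol as a family, and all 10 of the 10 symbols were found among the 54343 genes of the deposited table. MC38 is a tumour line of C57BL/6 mice, here the parental line bought from a vendor and labelled wild type. MC38.T4 started from MC38 cells transfected with a huMSLN.pcDNA3.1 vector, which carries human mesothelin, and from a sorted clone of these, MC38.huMSLN.34. That clone was grown as a tumour in C57/BL6 mice for about 25 days and returned to culture for 10 generations, and a single cell clone with low mesothelin became MC38.T4. MC38.T4 is therefore 1 clone, and transfection, passage in a mouse and cloning cannot be told apart in the comparison. Both lines grew in the same medium with fetal bovine serum, and polyA RNA of 5 libraries per line was sequenced. The labels give no batch or date. They do not say whether the 5 libraries came from separate cultures, so p-values cover the spread among these libraries alone, which may be technical.

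VEGF ligands are secreted dimers that drive the growth and permeability of vessels. VEGF-A binds VEGFR1, encoded by Flt1, and VEGFR2, encoded by Kdr, which carries most of its signal in endothelium. VEGF-B and placental growth factor, encoded by Pgf, bind VEGFR1. VEGF-C and VEGF-D bind VEGFR3, encoded by Flt4, which drives the growth of lymphatic vessels, and are cut by proteases to reach full activity. Neuropilins are co-receptors that bind VEGF ligands and also class 3 semaphorins, for which plexins are the signalling chains. ANGPTL4 inhibits lipoprotein lipase, and its gene, like Vegfa, is a textbook target of the hypoxia-inducible factors (HIF). Tumour cells are usually a source of the ligands, while the VEGF receptors are best known from endothelium.

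The values are FPKM, fragments scaled to gene length and library size, so levels of different genes can be set side by side. Each library held 10723 to 10938 genes at 1 FPKM or more, and depth, read from the spacing of low values, was 0.874 to 1.14 times that of MC38 replicate 1. Total reads were not used here. A pair of libraries stood apart, MC38 replicate 1 by a low sum of FPKM and MC38.T4 replicate 4 by a high level of Malat1. The labels call MC38 both melanoma and colon carcinoma, and markers of both were absent or low. The pigment gene Tyr and the intestinal factor gene Cdx2 were listed at 0 in every library. Not all markers were: Pmel stood at 0.522 ± 0.08 FPKM in MC38 and 0.178 ± 0.01 in MC38.T4, without overlap. Cdx1 was listed at 0 in MC38 and had a mean of 0.029 FPKM in MC38.T4. Of 12 intestinal epithelial genes none was tested. The highest were Lgals4 in MC38 (0.197 ± 0.09 FPKM, and 0.169 ± 0.07 in MC38.T4) and Cdh1 in MC38.T4 (1.00 ± 0.07 FPKM, and 0.021 ± 0.008 in MC38). Of 8 melanocyte genes 1 was tested, Mitf (0.781 ± 0.14 and 1.74 ± 0.10 FPKM, mean ± SD, n = 5 per line, MC38 first). Mitf was under 1 FPKM in every MC38 library, so it was tested only through its MC38.T4 values.

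The 3 members with the largest rises and the 1 with the largest fall are shown first by the DNA before their start sites. Promoter windows of 250 bases came from RefSeq on mouse build GRCm38.p6, which is another build than the authors' GRCm39, and 9 of the 10 members matched. Capitals mark hypoxia response cores (ACGTG or GCGTG) and GC boxes (GGGCGG), searched on both strands, and bases that GENCODE places in an exon were left out of the printed stretch.
Vegfd, chrX:164373272-164373377, plus strand: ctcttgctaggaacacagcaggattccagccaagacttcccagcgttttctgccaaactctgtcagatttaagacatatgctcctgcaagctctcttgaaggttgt
Nrp1, chr8:128358823-128359072, plus strand: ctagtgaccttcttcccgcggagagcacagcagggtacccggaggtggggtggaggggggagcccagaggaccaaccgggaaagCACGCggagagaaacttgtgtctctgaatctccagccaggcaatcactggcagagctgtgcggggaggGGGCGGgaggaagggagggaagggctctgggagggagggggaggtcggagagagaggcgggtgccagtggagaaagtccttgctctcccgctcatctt
Nrp2, chr1:62703067-62703284, plus strand: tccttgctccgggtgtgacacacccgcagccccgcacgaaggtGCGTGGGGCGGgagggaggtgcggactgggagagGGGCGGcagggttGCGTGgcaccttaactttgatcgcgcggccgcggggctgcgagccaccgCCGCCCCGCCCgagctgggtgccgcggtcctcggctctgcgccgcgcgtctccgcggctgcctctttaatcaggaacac
Vegfc, chr8:54077282-54077531, plus strand: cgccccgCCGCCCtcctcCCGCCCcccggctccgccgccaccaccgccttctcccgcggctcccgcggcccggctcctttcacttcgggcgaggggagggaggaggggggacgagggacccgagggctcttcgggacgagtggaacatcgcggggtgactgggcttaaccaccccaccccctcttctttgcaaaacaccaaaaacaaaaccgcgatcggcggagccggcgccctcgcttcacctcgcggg
The Vegfd window was poor in CG dinucleotides, with 2 in 250 bases, and had 42.4% G and C. Vegfc held 30 CG dinucleotides, Nrp2 held 32 and Nrp1 held 11, against a median of 6 over the 32851 windows of the table. A hypoxia core lay in the windows of Nrp1 (1 match, starting 166 bases before the start site) and Nrp2 (2 matches, at 207 and 160 bases), and in 38.6% of all windows. At Nrp2 the match at 207 bases lies directly before a GC box at 202, and the GC boxes at 111 and 106 bases share a base. No match to these cores was found in the windows of Vegfc and Vegfd. A GC box lay in the windows of Vegfc, Nrp1 and Nrp2 and in 32.7% of all windows. The Vegfd window held a TATA box (TATAAA) 73 bases before its RefSeq start, a motif found in 12.4% of windows, but GENCODE places the last 144 bases of that window in an exon, so the annotations differ on the start. None of the 9 members had an AP-1 element (TGANTCA, 6.75% of all windows). These matches describe letters and not bound sites.

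Of the 10 members, 7 passed the filter on low values (at least 1 FPKM in at least 5 libraries) and were tested with limma on log2(FPKM + 1). All 7 had an adjusted p under 0.05. In MC38.T4, 6 of them were higher and 1 was lower. This is read against a background in which 86.0% of 11110 tested genes passed, 43.1% higher and 42.9% lower, so the passing itself does not set the members apart. Vegfd, Nrp1 and Nrp2 rose and Vegfc fell by at least 1 on the log2 scale. That limit was passed upwards by 10.0% and downwards by 7.14% of tested genes. The lines did not overlap for any of the 7 tested members, 6 higher and 1 lower in MC38.T4, beside 77.4% of tested genes (38.4% higher and 38.9% lower). Among the 3 members below the filter they did not overlap for Flt1 and Kdr, which makes 9 of the 10 members. No such share was taken over genes below the filter, so this count has no matching background. Pgf, Flt1 and Kdr lay below the filter. Vegfd met it through the MC38.T4 libraries, since 2 of its 5 MC38 libraries were under 1 FPKM.

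**Figure D1:**
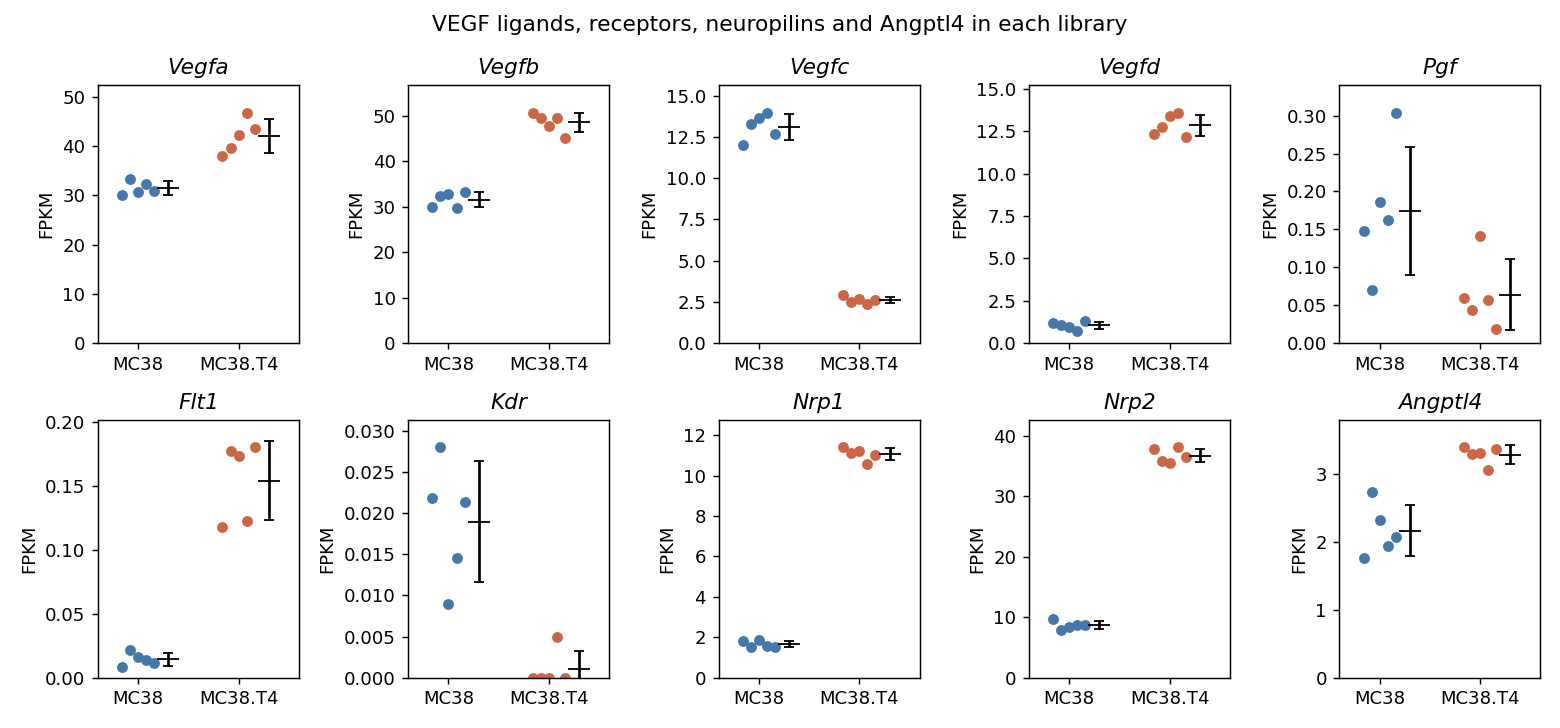
FPKM of each of the 10 genes (vertical axes, each from 0, with their own scale) in the 5 MC38 libraries (blue) and the 5 MC38.T4 libraries (orange); black bars are the mean and SD, drawn down to 0 at most. The lines are apart for every gene except Pgf, and Vegfc and Kdr are the genes that are lower in MC38.T4 without overlap.

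The ligand genes that bind VEGFR3 changed places. Vegfd, which encodes VEGF-D and was first described as a gene induced by Fos, was read at 1.16, 1.08, 0.929, 0.725 and 1.29 FPKM in MC38 replicates 1 to 5 and at 12.4, 12.7, 13.4, 13.6 and 12.2 FPKM in MC38.T4. Every MC38.T4 library lay far above every MC38 library. The mean went from 1.04 ± 0.22 to 12.8 ± 0.63 FPKM, 12.4-fold, with a log2 difference of 2.77 (SE 0.07, limma adjusted p = 1.47e-14). Only 60 of the 11110 tested genes, Vegfd included, rose as far or farther on this scale.

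Vegfc, which encodes the main growth factor of lymphatic endothelium, went the other way. It was read at 12.03, 13.3, 13.6, 14.0 and 12.7 FPKM in MC38 and at 2.91, 2.47, 2.67, 2.39 and 2.59 FPKM in MC38.T4. Every MC38 library lay far above every MC38.T4 library. The mean fell from 13.1 ± 0.78 to 2.61 ± 0.20 FPKM, 5.04-fold lower, with a log2 difference of -1.97 (SE 0.05, limma adjusted p = 2.5e-14), and 77 tested genes fell as far or farther. The ratio of Vegfc to Vegfd thus went from 13.3 ± 3.9 in MC38 (range 9.87 to 19.3) to 0.203 ± 0.022 in MC38.T4 (range 0.176 to 0.236). Their sum moved little by comparison. It lay between 13.2 and 14.7 FPKM in MC38 and between 14.8 and 16.1 FPKM in MC38.T4, with means of 14.2 ± 0.61 and 15.5 ± 0.56, and no test was made of it. Flt4, the gene of their receptor, was listed at 0 in the 5 MC38 libraries and had a mean of 0.002 FPKM in MC38.T4, so the cells carried transcripts of these ligands and next to none of VEGFR3.

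Vegfa and Vegfb were the most abundant ligand genes in both lines, and both rose. Vegfa, the main inducer of vessel growth, was read at 30.2, 33.4, 30.7, 32.4 and 30.9 FPKM in MC38 and at 38.0, 39.7, 42.3, 46.9 and 43.5 FPKM in MC38.T4. MC38.T4 replicate 4 was the highest, and the lowest MC38.T4 library still lay above the highest MC38 library. The means were 31.5 ± 1.4 and 42.1 ± 3.4 FPKM, a rise of 1.33-fold (log2 difference 0.40, SE 0.05, limma adjusted p = 2.5e-06). A rise of this size or more was seen for 28.7% of tested genes. Leaving out both libraries that stand apart gave 0.35.

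Vegfb, whose protein binds VEGFR1 and is best known from heart, muscle and fat, was read at 29.9, 32.4, 32.9, 29.6 and 33.2 FPKM in MC38 and at 50.8, 49.5, 47.9, 49.7 and 45.2 FPKM in MC38.T4. The lowest MC38.T4 library lay well above the highest MC38 library. It rose 1.54-fold, from 31.6 ± 1.7 to 48.6 ± 2.1 FPKM (log2 difference 0.61, SE 0.04, limma adjusted p = 2.29e-09). Neither Vegfa nor Vegfb passed limma's test against a fold of 1.5 (adjusted p = 1 and 0.81).

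Pgf, which encodes placental growth factor, was near the limit of detection. It was read at 0.148, 0.070, 0.186, 0.162 and 0.304 FPKM in MC38 and at 0.060, 0.043, 0.142, 0.056 and 0.019 FPKM in MC38.T4. MC38.T4 replicate 3 reached the range of MC38, so the lines overlapped. Across libraries these values were whole multiples, to within 0.00455 of a step, of what 1 fragment is worth, and amounted to 9, 4, 11, 9 and 19 fragments in MC38 and 4, 3, 9, 3 and 1 in MC38.T4. In the fit with no filter, where 47.8% of 26597 genes were called, 25.6% higher and 22.2% lower, Pgf was lower in MC38.T4 (limma adjusted p = 0.0379), and the exact permutation test of this 1 gene gave p = 0.0159, two-sided and unadjusted.

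The 5 ligand genes together summed to 77.5 ± 2.6 FPKM in MC38 and 106.2 ± 3.7 FPKM in MC38.T4. Vegfa held 40.7% ± 1.3 and 39.6% ± 2.4 of that sum, so its share differed by less than the spread between libraries. Vegfb held 40.8% ± 1.5 and 45.8% ± 2.2. The share of Vegfc was 17.0% ± 0.82 in MC38 and 2.46% ± 0.25 in MC38.T4, and that of Vegfd was 1.34% ± 0.29 and 12.1% ± 0.33. The ratio of Vegfa to Vegfc went from 2.40 ± 0.11 to 16.3 ± 2.4. Shares of FPKM describe transcripts per length and say nothing of secreted protein, and the deposited gene totals do not separate the Vegfa splice forms.

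**Figure D2:**
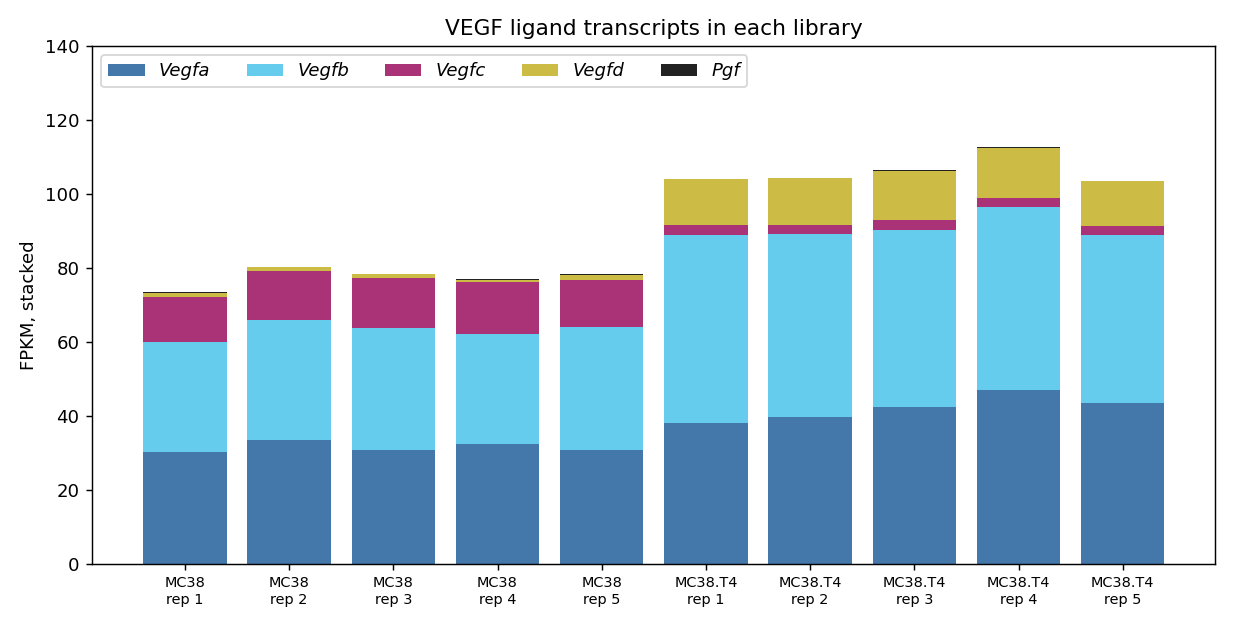
FPKM of the 5 ligand genes stacked for each of the 10 libraries (vertical axis, from 0). The stacks reach 73.4 to 80.2 FPKM in MC38 and 103.5 to 112.6 in MC38.T4. Of the Vegfc and Vegfd segments, that of Vegfc is the larger in MC38 and that of Vegfd in MC38.T4.

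Transcripts of the signalling receptors were scarce in both lines. Flt1, which encodes VEGFR1 and, from shorter transcripts, a soluble trap for VEGF-A, was read at 0.008, 0.022, 0.016, 0.014 and 0.012 FPKM in MC38 and at 0.118, 0.177, 0.173, 0.123 and 0.180 FPKM in MC38.T4. The lines did not overlap, yet every value stayed under 0.2 FPKM. The mean was 10.8-fold higher in MC38.T4, 0.014 ± 0.005 against 0.154 ± 0.031 FPKM, and the fit with no filter called it (log2 difference 0.19, SE 0.02, limma adjusted p = 1.15e-05). The pseudocount of 1 compresses this difference. Whole fragments could not be read from the Flt1 values, and the short and long forms cannot be told apart here.

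Kdr, the gene of VEGFR2, was read at 0.0219, 0.028, 0.009, 0.0145 and 0.0214 FPKM in MC38. In MC38.T4 it was listed at 0 in 4 libraries and at 0.005 FPKM in replicate 4. In fragments, whole to within 0.01 of a step, this was 5, 6, 2, 3 and 5 against 0, 0, 0, 1 and 0, or 21 against 1 in all. A library listed at 0 allows up to 3 fragments, equal to 0.0115 to 0.0148 FPKM in these 4 libraries, which exceeds the value of MC38 replicate 3. The fit with no filter called Kdr lower (limma adjusted p = 0.00596, log2 difference -0.03), at levels that no library brought above 0.03 FPKM. These fragment limits cover counting error only. Ligand and receptor levels were thus apart by orders of magnitude: the ligand sum was over 70 FPKM in every library, and Flt1 and Kdr together lay between 0.025 and 0.180 FPKM.

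The co-receptors were the receptor-side genes with substantial transcript, and both rose. Nrp1 encodes neuropilin-1, which binds VEGF-A and presents it to VEGFR2. It was read at 1.82, 1.54, 1.86, 1.56 and 1.52 FPKM in MC38 and at 11.4, 11.1, 11.2, 10.6 and 11.02 FPKM in MC38.T4. The libraries of each line lay close together, with a wide gap between the lines. The mean rose 6.66-fold, from 1.66 ± 0.17 to 11.1 ± 0.31 FPKM (log2 difference 2.18, SE 0.05, limma adjusted p = 4.96e-15), and 129 tested genes rose as far or farther.

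Nrp2 encodes neuropilin-2, the co-receptor that binds VEGF-C and VEGF-D. It was read at 9.73, 7.95, 8.40, 8.65 and 8.68 FPKM in MC38 and at 37.8, 35.8, 35.5, 38.1 and 36.4 FPKM in MC38.T4. MC38 replicate 1 was the highest of its line and still far below any MC38.T4 library. It rose 4.23-fold, from 8.68 ± 0.65 to 36.7 ± 1.2 FPKM (log2 difference 1.96, SE 0.05, limma adjusted p = 8.51e-15), and 201 tested genes rose as far or farther. Nrp2 was the more abundant of the pair in every library. The ratio of Nrp2 to Nrp1 lay between 4.51 and 5.71 in MC38 and between 3.16 and 3.60 in MC38.T4, so the lines did not overlap in this ratio either. Together the neuropilin genes summed to 10.3 ± 0.75 and 47.8 ± 1.1 FPKM.

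Angptl4 was read at 1.76, 2.74, 2.32, 1.94 and 2.07 FPKM in MC38 and at 3.39, 3.29, 3.31, 3.05 and 3.37 FPKM in MC38.T4. MC38 replicate 2 came nearest to MC38.T4, and the lines did not overlap. The rise was 1.52-fold, from 2.17 ± 0.38 to 3.28 ± 0.14 FPKM (log2 difference 0.44, SE 0.07, limma adjusted p = 2.57e-05), a size reached by 26.7% of tested genes. It was not called against a fold of 1.5 (adjusted p = 1), and quantile normalization gave a log2 difference of 0.32. Lpl, the gene of the lipase that ANGPTL4 inhibits, was listed at 0 in every library, as was Gpihbp1, which encodes the anchor of that lipase on endothelium.

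**Figure D3:**
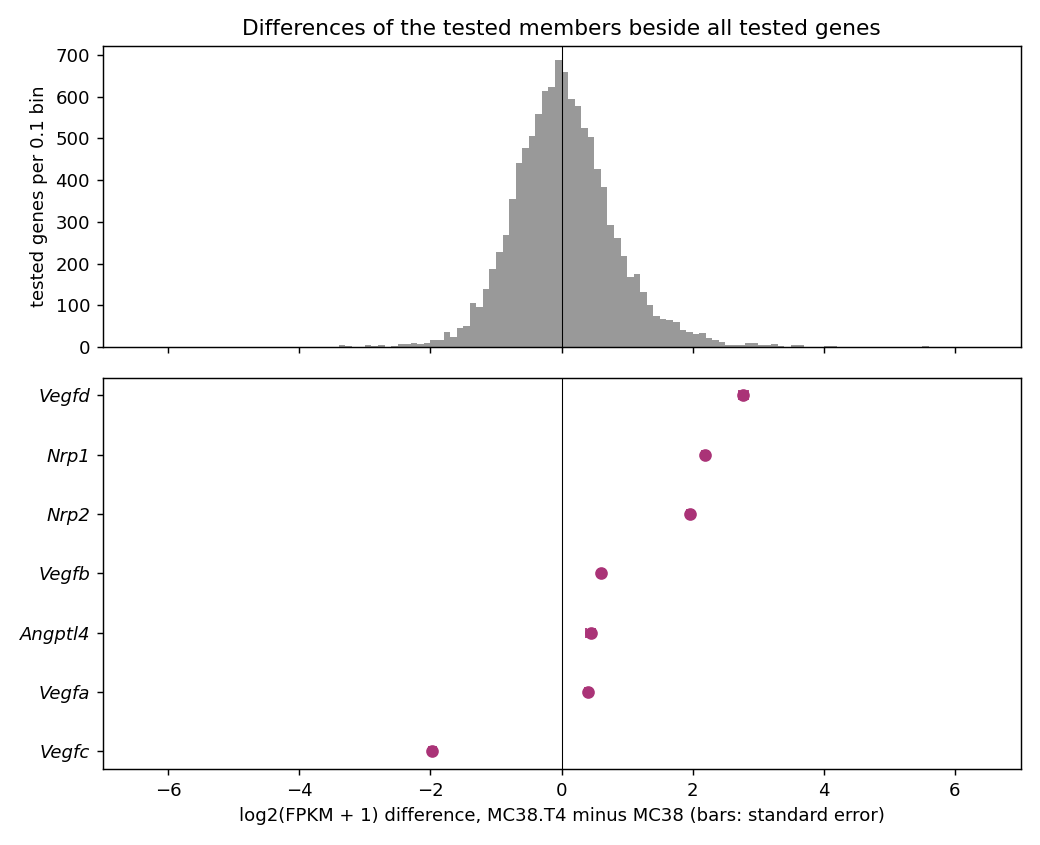
Upper panel: number of tested genes in bins of 0.1 of the log2(FPKM + 1) difference, MC38.T4 minus MC38, for 11110 genes. Lower panel: the same difference with its standard error for the 7 tested members. Vegfd, Nrp1 and Nrp2 lie in the right tail (2.77, 2.18 and 1.96) and Vegfc in the left (-1.97), while Vegfb, Angptl4 and Vegfa (0.61, 0.44 and 0.40) lie within the bulk.

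The order of levels differed between the lines. In MC38 it ran from Vegfb and Vegfa, whose ranges overlapped, through Vegfc, Nrp2, Angptl4, Nrp1 and Vegfd to Pgf, Kdr and Flt1. The ranges of Angptl4 and Nrp1 overlapped, as did those of Kdr and Flt1. In MC38.T4 it ran from Vegfb, Vegfa and Nrp2 through Vegfd, Nrp1, Angptl4 and Vegfc to Flt1, Pgf and Kdr. There the ranges of Vegfb and Vegfa overlapped, those of Vegfa and Nrp2 overlapped narrowly, and those of Flt1 and Pgf overlapped. Vegfd moved from the rank below Nrp1 to the rank above it, without overlap between these genes in either line.

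Tested genes beside the 7 tested members on the chromosome, 5 on each side by RefSeq order, were read. Among all tested genes 43.1% rose and 42.9% fell, 10.0% and 7.14% by 1 or more on the log2 scale. Of 10 neighbours of Vegfd 4 rose and 5 fell, 1 and 2 of them by 1 or more on the log2 scale. Of 10 neighbours of Vegfc 6 rose, 2 of them by 1 or more (highest 1.77), and 2 fell, the lowest at -0.30, so none fell as Vegfc did. Neither the 8 neighbours of Nrp1, which lies near the end of its chromosome, nor the 10 of Nrp2 held a gene that changed by 1 or more. Of those of Nrp1, 2 rose and 5 fell (median -0.17). Of those of Nrp2, 4 rose and 4 fell (median 0.05). Of 10 neighbours of Vegfb 7 rose, 3 of them by 1 or more, and 1 fell, with a median of 0.49 beside 0.61 for Vegfb. Around Angptl4 7 of 10 rose, 1 of them by 1 or more, and 1 fell (median 0.19). Around Vegfa 5 rose and 5 fell, 1 of the rises being by 1 or more (median 0.09). Profiles over 10 libraries were compared by Euclidean distance of log2(FPKM + 1) among tested genes, with Gm and Rik gene models left out. Those nearest to Vegfd were the profiles of Ptprn (distance 0.43) and Ifit1 (0.55). Nearest to Nrp1 were Ddx11 (0.42) and Ptpre (0.55), and to Vegfc Peli1 (0.54) and Plcxd2 (0.62). The median distance of a gene to these 3 members was 5.65 to 6.83. Vegfa lay nearest to Emc2 (0.22) and Mogs (0.31), Vegfb to Nans and Adam15 (0.21 each) and Angptl4 to Pdp2 and Tmem117 (0.33 each). With 2 lines this likeness reflects mostly the level in each line.

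Listed partners of the VEGF receptors and neuropilins, among them plexins and integrins, moved in both directions. Of 13 receptor partners 7 were tested, 6 rose and 1 fell, with a median log2 difference of 0.49 against 0.00 over all tested genes. The count of 7 calls was 5 with TPM scaling, 6 with equal medians and 6 in 7 of the 10 fits that left out 1 library, and the rise of Plxna1 was marginal (limma adjusted p = 0.0309, lines overlapping). Plxna3, a plexin that pairs with neuropilins, rose 3.58-fold, from 0.910 ± 0.08 to 3.26 ± 0.26 FPKM. Gipc1, whose protein binds the tail of neuropilin-1, rose 2.14-fold, from 16.3 ± 0.61 to 34.8 ± 0.82 FPKM. Itgav, the integrin alpha V gene, was the only fall, from 54.9 ± 4.1 to 23.2 ± 0.53 FPKM.

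Of 7 class 3 semaphorin genes, which encode the other ligands of the neuropilins, 2 were tested and both fell, while the other 5 lay below the filter. Sema3c fell 8.84-fold, from 24.8 ± 1.7 to 2.81 ± 0.04 FPKM (log2 difference -2.76, SE 0.04, limma adjusted p = 2.08e-16). Sema3a, a repellent of axons that competes with VEGF-A for neuropilin-1, fell from 41.4 ± 2.5 to 30.7 ± 1.4 FPKM. With no filter 4 of the 7 were called, beside 47.8% of all 26597 genes in that fit. The added ones went in opposite directions: Sema3d was higher in MC38.T4 (0.035 and 0.065 FPKM, limma adjusted p = 0.0229) and Sema3e lower (0.058 and 0.001 FPKM, limma adjusted p = 4.75e-05). Sema3b, Sema3f and Sema3g were not called. Summed neuropilin FPKM stood at 0.156 ± 0.006 of summed Sema3a and Sema3c FPKM in MC38 and at 1.43 ± 0.06 in MC38.T4.

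**Figure D4:**
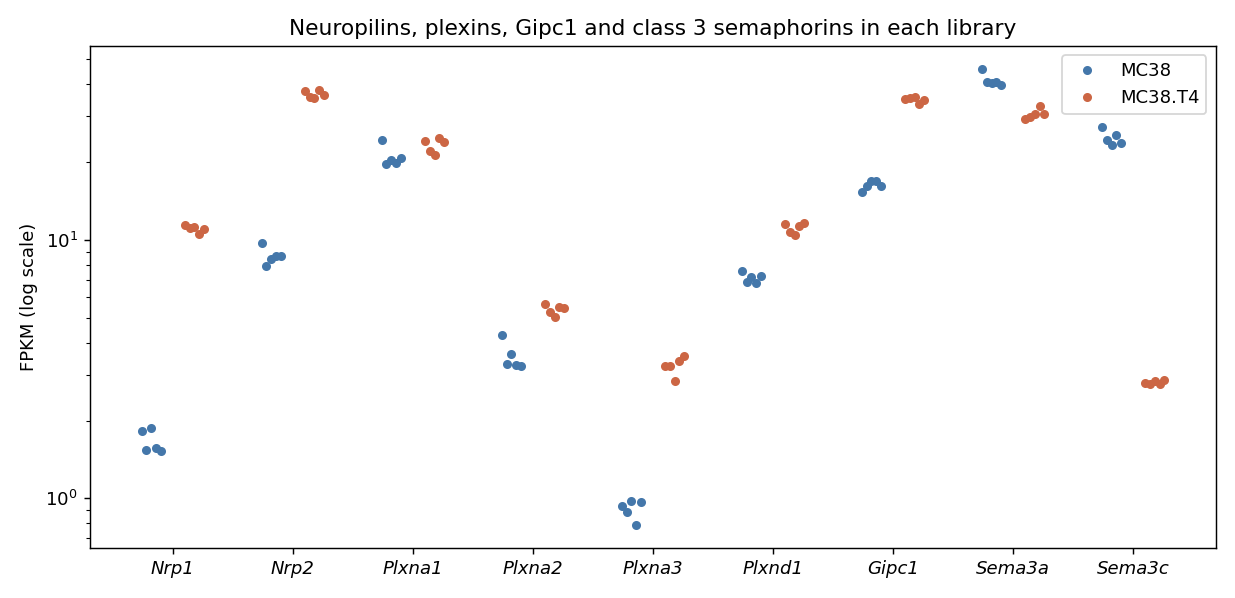
FPKM on a log axis of the neuropilin genes, 4 plexin genes, Gipc1 and the 2 tested class 3 semaphorin genes in each MC38 (blue) and MC38.T4 (orange) library. Nrp1 and Nrp2 rise and Sema3c falls without overlap, whereas the Plxna1 points of the lines overlap.

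Genes for the cutting and trapping of VEGF ligands changed widely. Of 17 listed genes 9 were tested, 5 rose, 3 fell and 1 did not pass (median log2 difference 0.93). The falls were those of Furin, a protease that cuts the VEGF-C and VEGF-D precursors (28.2 ± 0.83 to 17.6 ± 0.60 FPKM), Adamts14 (11.6 ± 0.53 to 6.99 ± 0.54 FPKM) and Pcsk7 (8.92 to 6.89 FPKM, named after its values were seen). Adamts3, whose protease matures VEGF-C, was listed at 0 in every library, and its cofactor gene Ccbe1 stood at 0.001 and 0.013 FPKM. Mmp9, whose gelatinase frees VEGF held in matrix, rose from 0.959 ± 0.06 to 32.0 ± 1.0 FPKM. Its MC38 libraries lay between 0.889 and 1.03 FPKM, so it met the filter through the MC38.T4 libraries. Thbs1, which encodes the angiogenesis inhibitor thrombospondin-1, rose 15.4-fold, from 3.96 ± 0.34 to 61.0 ± 3.5 FPKM.

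HIF targets other than the members mostly rose. Of 18 tested genes of that list 14 rose, 3 fell and 1 did not pass, with a median log2 difference of 0.98. Over all 11110 tested genes 43.1% rose and 42.9% fell, with a median of 0.00. The counts of every pathway list are to be read beside these values. Genes under 1 FPKM in every MC38 library, here Ankrd37, Plxna3, Mmp3 and Hgf, met the filter only through MC38.T4, which fixed their direction. Ankrd37 went from 0.230 ± 0.05 to 7.66 ± 0.73 FPKM and Ddit4, a brake on mTOR, from 5.15 ± 0.58 to 33.4 ± 1.8 FPKM, while Ndrg1 fell from 94.9 ± 5.2 to 43.4 ± 3.5 and the histone demethylase gene Kdm3a from 29.3 ± 1.4 to 23.1 ± 0.47. The rises of Vegfa (0.40) and Angptl4 (0.44) were smaller than that list's median. Of 10 tested HIF subunit and regulator genes 6 rose and 4 fell (median 0.26). The prolyl hydroxylase genes Egln2 and Egln3, whose proteins mark HIF for destruction, rose from 9.88 ± 0.10 to 19.6 ± 1.3 and from 7.05 ± 0.40 to 12.5 ± 0.92 FPKM. Cited2, a competitor of HIF for its coactivators, fell from 229.5 ± 7.9 to 59.6 ± 0.74 FPKM, and the coactivator gene Crebbp from 10.9 ± 1.1 to 5.17 ± 0.31.

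Of 13 tested genes for factors that act on Vegfa transcription, mRNA decay or splicing 5 rose, 6 fell and 2 did not pass (median log2 difference -0.04). Zfp36 and Zfp36l1, whose proteins speed the decay of mRNAs such as that of Vegfa, fell from 6.98 ± 0.50 to 3.03 ± 0.39 and from 30.2 ± 1.3 to 13.1 ± 0.59 FPKM. The splicing factor gene Srsf1 rose from 44.3 ± 1.4 to 135.1 ± 7.3 FPKM and Stat3 from 15.6 ± 0.85 to 33.6 ± 0.69 FPKM. Downstream of the receptors 12 of 29 tested genes rose, 13 fell and 4 did not pass (median -0.06). Among the falls, Sphk1 was under 1 FPKM in every MC38.T4 library (0.651 to 0.891). It met the filter only through MC38, which fixed its direction. Prkca, a protein kinase C gene, rose 4.62-fold to 29.3 ± 0.97 FPKM and Akt1 2.22-fold to 129.2 ± 5.6 FPKM, while the Src family kinase genes Fyn and Yes1 fell 1.94-fold and 1.88-fold. These genes serve many receptors.

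Of the list of angiopoietin-like genes, lipases and PPARs 6 of 16 were tested, 5 rose and 1 fell (median 0.63). Angptl2 rose from 29.9 ± 0.20 to 74.1 ± 1.8 FPKM and Ppard, a nuclear receptor that can induce Angptl4, from 10.2 ± 0.58 to 18.5 ± 0.71, while Angptl6 fell from 11.2 ± 0.74 to 6.08 ± 0.47. Of 11 other angiogenic ligands and receptors 2 were tested and both rose, Hgf from 0.620 ± 0.09 to 2.20 ± 0.25 FPKM and Apln, the apelin gene, from 4.18 ± 0.31 to 7.17 ± 0.54. With no filter 7 of the 11 were called, beside 47.8% of all 26597 genes in that fit. All 4 tested genes of the inhibitor list fell, among them Vash2, a vasohibin gene that is known to promote rather than restrain vessel growth (33.9 ± 1.9 to 11.2 ± 0.15 FPKM), and Serpinf1, which encodes the inhibitor PEDF (262.2 ± 15 to 165.0 ± 5.8 FPKM). Vash1, below the filter, went the opposite way (0.075 ± 0.03 to 0.331 ± 0.04 FPKM, without overlap) and was called in the fit with no filter (limma adjusted p = 7.85e-06). That fit called 5 of the 7 inhibitor genes, beside the same 47.8% of all genes. Thbs1, counted in the maturation and binding list, also rose. Among the genes named from these pathway lists as their largest rises and falls, the largest adjusted p was 5.27e-07 (limma). Genes named besides these, such as Plxna1, Pcsk7, Sema3d, Sema3e and Vash1, are not covered by that value.

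**Figure D5:**
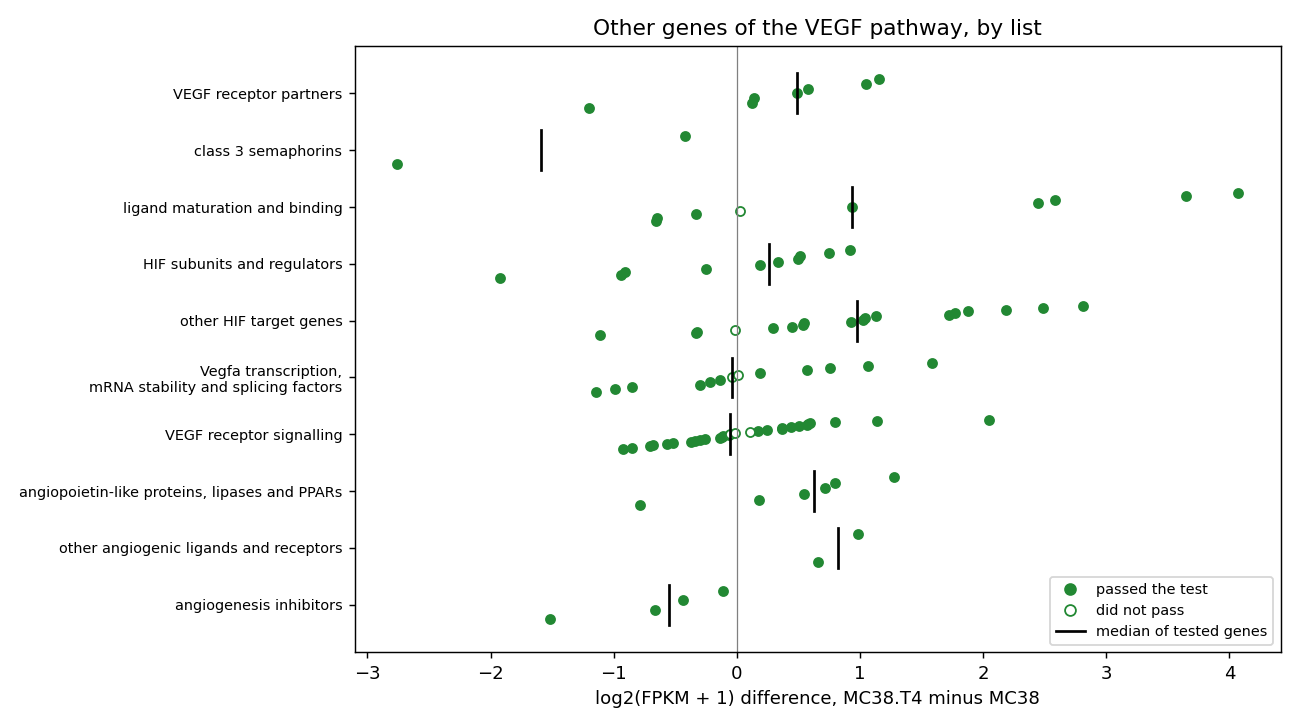
Log2(FPKM + 1) difference, MC38.T4 minus MC38, of each tested gene of the 10 pathway lists; filled points passed the limma test, open points did not, and black lines are the medians. The HIF target list has 14 rises among 18 genes, and both tested class 3 semaphorin genes lie to the left of 0.

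Markers of other cell types were read beside these results. Of 12 blood endothelial genes 1 was tested, Egfl7 (3.64 ± 0.65 and 4.33 ± 0.35 FPKM, limma adjusted p = 0.0335, lost under several alternatives), and Emcn, Cldn5 and Sox17 were listed at 0 in every library. The summed level of that list lay between 3.30 and 5.00 FPKM in MC38 and between 5.17 and 5.95 in MC38.T4. Pecam1, named after its values were seen, stood at 0.040 and 0.529 FPKM and Cdh5 at 0.005 and 0.046 FPKM, both without overlap, as for Flt1. The lines overlapped for Eng (0.405 and 0.400 FPKM), Esam, Vwf, Plvap, Erg and Robo4, which were not called with no filter. The part of endothelial cells in the Flt1 difference was not tested. Of 6 lymphatic endothelial genes Prox1, Lyve1 and Ccl21a were listed at 0 throughout, and Pdpn, which many tumour cells express, was at 64.5 ± 4.0 and 61.3 ± 5.0 FPKM. Of 12 fibroblast and pericyte genes 6 were tested and called higher, but Pdgfrb, Acta2 and Col1a2 met the filter only through MC38.T4, so their direction was fixed by it. The whole list had a summed level of 34.1 to 37.1 FPKM in MC38 and 110.7 to 119.7 in MC38.T4. Pdgfrb went from 0.191 ± 0.03 to 19.2 ± 0.89 FPKM and Acta2 from 0.044 ± 0.03 to 2.77 ± 0.25 FPKM, while the fibroblast collagen gene Col1a1 stood at 0.053 and 0.175 FPKM. Below the filter Rgs5 (0.005 and 0.405 FPKM) and Mcam (0.082 and 0.193 FPKM) were higher in MC38.T4, without overlap. Fap was lower in MC38.T4 (0.030 and 0.005 FPKM), and the lines overlapped for Des and Lum. The part of such cells in the rises of Vegfd, Nrp1 and Nrp2 was not tested, and in RNA from a culture more cells of a type and more RNA per cell cannot be told apart. Of 10 myeloid genes 2 were tested. Cd68 fell from 3.10 ± 0.32 to 2.21 ± 0.54 FPKM, with the lines overlapping, and Cd14 did not pass (3.44 and 3.19 FPKM). Below the filter Lyz2 (0.805 and 0.237 FPKM) and Ptprc (0.027 and 0.002 FPKM) were lower in MC38.T4, without overlap. Csf1r was higher (0.003 and 0.019 FPKM), also without overlap. Adgre1 was listed at 0 throughout. Of 10 lymphocyte genes none was tested, the highest being Cd79a at 0.019 and 0.041 FPKM.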

How the data were processed

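The authors deposited 1 table of FPKM with a gene symbol per row and 1 column per library, 10 columns in all, and each was mapped to a sample by its library name. PolyA RNA went into strand-specific libraries with a TruSeq kit, per the labels' protocols. The submitters' processing notes name build GRCm39 and DESeq2, with no version or role. No source used here names the aligner, counting program or annotation. FPKM divides by library total, so a few abundant genes can shift all others.

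The 11110 of 54343 genes that reached 1 FPKM in 5 or more libraries were fitted with limma 3.58.1 in R 4.3.3 on log2(FPKM + 1), with trend and robust moderation, a group term, two-sided tests and Benjamini-Hochberg adjustment over all tested genes at 0.05. Differences are MC38.T4 minus MC38, and the pseudocount understates those of low genes. Single members also had an exact permutation test over 252 assignments. Relative depth and fragments came from the spacing of low values. The fit was tested on simulated data. Other steps used matplotlib 3.10.9, SciPy 1.17.1, NumPy 2.4.6 and pandas 2.3.3 under Python 3.11.15. Motifs were searched in 250 bases before RefSeq starts (GRCm38.p6).

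Named genes are the 10 members, at most 2 rises and 2 falls per list with a mean FPKM of at least 1 (or its highest gene where none passed), and the 2 nearest profiles of each tested member, with exceptions stated. Some of these results are not reported here. The members and lists were chosen with earlier results of these data known. Counts over lists are descriptions. Alternatives were another pseudocount, other filters, scalings and variance models, a fold threshold, a block for the replicate number and single libraries left out. No count test was run, since the table holds no counts.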

Additional observations from a re-analysis of the deposited data

Results flagged for a closer look

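Kdr in MC38.T4 stood out by 1 library: replicate 4 was read at 0.005 FPKM and the other 4 libraries were listed at 0, so the gap took up the whole range of the group. The value equals 1 fragment. With 4 libraries at 0 the gap is the whole range whatever the remaining value is. Among the 10 members in both lines no other library stood apart from its group by this measure. Its limit is one that chance exceeds in about 1 of 20 groups of continuous values, a rate that does not apply to Kdr.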

How the results depend on the processing

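The directions of the 7 tested members were the same under every alternative that gave a value. Log2 differences lay between 2.69 and 3.53 for Vegfd, 2.11 and 2.67 for Nrp1, 1.93 and 2.07 for Nrp2, -2.29 and -1.95 for Vegfc, 0.57 and 0.63 for Vegfb, 0.35 and 0.44 for Vegfa and 0.32 and 0.59 for Angptl4, and a pseudocount of 0.1 gave the values farthest from 0 for Vegfd, Nrp1, Nrp2, Vegfc and Angptl4. Angptl4 had no value at a minimum FPKM of 5. Tested against a fold of 1.5, 4 members passed in place of 7, and 3474 of all genes in place of 9555 (1847 higher and 1627 lower). Under that test the lists held 3 called receptor partners, 1 semaphorin, 5 maturation and binding genes, 5 HIF subunits and regulators, 11 other HIF targets, 6 Vegfa transcription, mRNA and splicing factors, 7 receptor signalling genes, 1 other angiogenic gene and 1 inhibitor. With no filter, where 47.8% of 26597 genes were called, 4 semaphorin genes and 7 other angiogenic genes were called. With a minimum FPKM of 5 the latter list held 1. The call of Egfl7 was lost in 12 alternatives (adjusted p from 0.0521 with TPM scaling to 1 against a fold of 1.5, and 0.129 without both libraries that stand apart, an alternative chosen after seeing the data). Pdpn, not called in the reported fit, was called lower in 4 alternatives: without MC38.T4 replicate 4 (limma adjusted p = 0.0308), without both libraries (0.00191), with TPM scaling (0.0296) and with array weights (0.0302). The labels do not say whether the replicate numbers pair the libraries. Deviations of same-numbered libraries correlated between -0.129 and 0.142, 2 of 5 pairs over 0.1. Of 5 MC38 libraries 2 correlated best with their own number, and so few pairs cannot decide the question. With the replicate number as a block 9534 genes and the same count of 7 members passed. Exact permutation p was 0.00794 for the 7 tested members, Flt1 and Kdr, the smallest that 5 against 5 libraries can give. Depth limits Pgf, Flt1 and Kdr, whose calls rest on the fit with no filter.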
